A study of Mus musculus with 4 samples.

Results

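Expression of 9 genes of neurotrophin, insulin-like growth factor (IGF) and glial cell line-derived neurotrophic factor (GDNF) signalling was examined across cell types, brain regions and genotypes. The genes were the ligands Bdnf and Igf1, the receptors Ntrk2, Ntrk3, Igf1r and Ret, the GDNF-family co-receptors Gfra1 and Gfra2 and the IGF-binding protein gene Igfbp5. They were chosen by name from 43348 genes in the files, with earlier results of these data known, and all 9 were found. Shares of members set beside shares of all genes are therefore descriptions. TdTomato-positive cells of the medial ganglionic eminence (MGE) lineage had been sorted from frontal cortex and hippocampus of juvenile mice of both sexes, between postnatal day 18 and 20, and sequenced with droplet-based 3′ chemistry that counts unique molecular identifiers (UMIs). Every mouse carried Nkx2-1-Cre, active in MGE progenitors, and the Cre-dependent Ai14 TdTomato reporter. Grin1-null mice also carried floxed Grin1 alleles (Grin1 fl/fl), which removes the obligate subunit of the NMDA receptor from this lineage, while wild-type (WT) controls from the same litters were Grin1 wt/wt. Each library drew on several mice, and the buffers held tetrodotoxin, the NMDA receptor blocker APV and the transcription inhibitor Actinomycin-D. There were 3 WT and 2 Grin1-null libraries from each region, with replicate 1 made with v2 chemistry and replicates 2 and 3 with v3, so that the replicate number also marked the chemistry.

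In WT cortex the libraries of replicates 1, 2 and 3 held 1277, 3851 and 3960 cells and 9306756, 14212183 and 28057207 UMIs. The WT hippocampus libraries held 2221, 4600 and 3159 cells and 10555408, 8782181 and 20639002 UMIs. Grin1-null cortex replicates 1 and 2 held 181 and 2898 cells with 1488601 and 25688337 UMIs, and Grin1-null hippocampus 404 and 4436 cells with 3856745 and 47338167 UMIs. The median depth per cell was lowest in WT hippocampus replicate 2, at 1479 UMIs, and highest in Grin1-null hippocampus replicate 2, at 9508. No pair of libraries shared more than 12 cell barcodes. After filtering, 26201 cells fell into 35 clusters, of which 12 were interneuron clusters with 11090 cells: 6751 somatostatin (SST), 2155 parvalbumin (PVALB) and 2184 neurogliaform (NGFC) cells. The SST class pooled 7 clusters, because the methods of the study pool TH with SST cells. The markers named 3 of them TH, clusters 7, 9 and 11 with 3126 cells, of which cluster 11 was led by Th and Nr4a2. Levels are UMI counts scaled to the UMI total of a class in a library (counts per 1e6, CPM). They were not scaled to transcript length and are read within a gene, across classes, clusters, regions and genotypes. Where values of different genes stand side by side, they are descriptions.

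Neurotrophins, IGFs and GDNF-family ligands are secreted factors that act through receptor tyrosine kinases and guide survival, growth and synapse formation of neurons. BDNF signals through TrkB, encoded by Ntrk2, and is released by excitatory neurons in an activity-dependent manner, and interneurons respond to it. GDNF-family ligands bind a membrane-anchored co-receptor, which brings them to the shared kinase Ret, while binding proteins in the extracellular space set how much IGF reaches its receptor.

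The sorted interneurons held very little Bdnf, which encodes the main neurotrophin of cortical excitatory neurons, while glutamatergic (GLUT) cells caught in the sort held it at a high level. Mean Bdnf over the WT libraries was 120.0 ± 83.4 CPM (SD, n = 5) in GLUT cells, 15.8 ± 18.7 CPM in astrocytes (ASTR) and 0.778 ± 0.716 CPM (n = 6) in SST cells. GLUT cells lay above the astrocytes in every library, and the classes below overlapped. The pooled level in GLUT cells was 68.3 times that in SST cells (95% interval of counting error, 48.7 to 98.0, from 239 and 40 UMIs). In NGFC cells no UMI of Bdnf was found in any library, which allows up to 0.469 CPM among 6395729 UMIs of WT cells. The share of cells with a Bdnf UMI was 17.2% of GLUT cells (median 1060 UMIs), 0.646% of SST cells (median 6247) and 0.311% of oligodendrocytes (OLIGO, median 3552.5), a type not known for Bdnf. After thinning each cell to 1000 UMIs, with 416, 334 and 634 shallower cells left out, these shares were 6.61%, 0.151% and 0.0581%. Pooled over libraries, 14.5% of GLUT cells in WT cortex and 40.7% in WT hippocampus held a Bdnf UMI (4.81% and 15% thinned). Replicates 1, 2 and 3 gave 47, 618 and 114 of these cells in cortex and 2, 15 and 74 in hippocampus. Cluster 18, of low depth, held 490 of the cortical and 24 of the hippocampal cells, and cluster 21 held 289 and 67. Region, library and cluster thus cannot be told apart here, and the difference was not tested. For SST cells the pooled shares were 0.864% in WT cortex and 0.135% in WT hippocampus (0.211% and 0% thinned), the latter at very few UMIs. Within the SST class, pooled Bdnf was 3.96 CPM in cluster 9, from 5 UMIs, 2.38 CPM in cluster 7, led by Crh and Tac2, and 1.18 CPM in cluster 3, led by Olfm3 and Cbln4.

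Igf1, the ligand of the IGF receptor, was at similar levels in NGFC and SST cells and lower in PVALB cells. The mean was 119.9 ± 52.5 CPM in NGFC, 105 ± 17.1 CPM in SST, 38.9 ± 49.1 CPM in microglia (MG), 32.9 ± 8.02 CPM in PVALB and 13.5 CPM in GLUT cells, and no UMI was found in astrocytes of any WT library. In SST cells the WT cortex libraries gave 119, 102 and 99.3 CPM and the WT hippocampus libraries 76.1, 106 and 125 CPM. In PVALB cells the values were 32.0, 33.9 and 38.3 CPM in cortex and 37.9, 17.4 and 37.9 CPM in hippocampus, all below every SST value. NGFC cells ranged most widely, from 41.3 CPM in WT hippocampus replicate 2 to 177 CPM in replicate 1, and overlapped the SST values. The share of cells with an Igf1 UMI was 38.0% in SST, 17.8% in PVALB (median 6764.5 UMIs) and 28.0% in NGFC cells (median 3498), against 0.190% in oligodendrocytes. The thinned shares were 9.48%, 3.35%, 8.31% and 0.0194%, with 334, 22, 148 and 634 shallower cells left out.

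Igf1 also differed among the clusters of a class. Pooled over WT cells, it reached 172 CPM (95% Poisson interval of counting error, 130 to 223) in PVALB cluster 32, led by Crabp1, but 35.2 CPM in PVALB cluster 1, led by Cartpt, Pvalb and Tac1, and 5.89 CPM (2.54 to 11.6, from 8 UMIs) in PVALB cluster 24, led by Pthlh. Among SST clusters Igf1 was 166 CPM in cluster 26, led by Gpx3, 133 CPM in cluster 8, led by Mgat4c, 125 CPM in cluster 23, led by Npy, Nos1 and Chodl, and 36.0 CPM in the Th-led cluster 11. The Th-led cluster thus lay near the Pvalb-led cluster 1 for this ligand. NGFC cluster 4, led by Hapln1 and Lamp5, held 110.4 CPM of Igf1 and NGFC cluster 14, led by Tenm1, 46.8 CPM. Of the 615 WT cells of cluster 14, 515 came from WT hippocampus replicate 2, and of the 287 WT cells of cluster 26, 229 and 49 came from replicate 1 of WT cortex and hippocampus.

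Ntrk2, which encodes the BDNF receptor TrkB, was present in all 3 interneuron classes and highest in astrocytes. Mean Ntrk2 was 1167 ± 221 CPM in astrocytes, 958 ± 700.3 CPM (n = 3) in choroid plexus (CP) cells, 517 ± 105 CPM in NGFC, 433 ± 101 CPM in PVALB, 386 ± 80.3 CPM in SST and 209 ± 76.0 CPM in GLUT cells. It was 117 ± 27.4 CPM in oligodendrocyte precursors (OPC), 37.6 ± 16.6 CPM in oligodendrocytes and 19.6 ± 15.3 CPM in microglia. Neighbours in this order overlapped, except that precursors lay above oligodendrocytes in every library. Of the interneurons, 77.7% of SST, 88.3% of PVALB and 75.4% of NGFC cells held an Ntrk2 UMI, against 2.87% of microglia (median 1096 UMIs), and 31.0%, 35.5%, 39.6% and 4.35% did so after thinning, with 334, 22, 148 and 94 cells left out.

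Ntrk3, which encodes the neurotrophin-3 receptor TrkC, was highest in PVALB cells. Its mean was 72.0 ± 15.2 CPM in PVALB, 35.9 ± 18.7 CPM in GLUT, 22.9 ± 6.31 CPM in SST, 21.8 ± 4.42 CPM in NGFC and 12.6 ± 4.76 CPM in OPC cells. PVALB cells held 92.1, 72.7 and 65.7 CPM in the WT cortex libraries and 46.7, 80.0 and 74.5 CPM in WT hippocampus, and SST cells 21.2, 15.1 and 18.7 CPM and 22.5, 27.1 and 32.9 CPM. Every PVALB value lay above every SST value, and GLUT cells overlapped both neighbours. Among the 12 interneuron clusters, Ntrk3 was highest in PVALB cluster 1, at 76.4 CPM (71.1 to 82.0), and in the Th-led cluster 11, at 72.1 CPM. It was 41.2 CPM in PVALB cluster 24, 10.9 CPM in SST cluster 8 and 2.06 CPM in the Chodl-expressing SST cluster 23.

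Igf1r, the IGF receptor tyrosine kinase gene, was highest in the few vascular (VASC) cells of the sort and low in the other classes. In vascular cluster 34, led by haemoglobin genes and Cldn5, the pooled level of Igf1r over 50 WT cells was 232 CPM (164 to 318, from 38 UMIs), with 305 CPM in WT cortex replicate 2, the WT library that held at least 10 of these cells. An Igf1r UMI was found in 42.0% of vascular (median 1896 UMIs), 3.07% of SST and 6.79% of PVALB cells, and in 23.8%, 0.584% and 0.837% after thinning, with 8, 334 and 22 cells left out. In the other classes its mean ran from 4.55 ± 3.59 CPM in SST through 5.43 ± 4.92 CPM in NGFC and 9.76 ± 5.36 CPM in PVALB to 13.4 ± 21.4 CPM in astrocytes, and each of these classes overlapped its neighbours. Across interneuron clusters the pooled level lay between 0.452 and 10.3 CPM of Igf1r.

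Igfbp5, a secreted protein that binds IGFs, was highest in astrocytes, and among interneurons in SST cells. Means were 855 ± 366 CPM in astrocytes, above the next class in every library, 196 ± 146 CPM in choroid plexus, 51.1 ± 29.1 CPM in GLUT, 50.1 ± 32.9 CPM in SST, 11.2 ± 9.51 CPM in NGFC and 3.02 ± 2.46 CPM in PVALB cells. A UMI was found in 13.4% of SST and 1.59% of PVALB cells, against 0.224% of oligodendrocytes, and in 3.94%, 0.257% and 0.0194% after thinning. Pooled over WT cells of both regions, the SST clusters were unequal, with 91.2 CPM of Igfbp5 in cluster 8, 66.4 CPM in cluster 26, 25.1 CPM in cluster 3, 20.4 CPM in cluster 7, 8.25 CPM in cluster 23 and 3.72 CPM in the Th-led cluster 11. In cluster 3 the level differed widely between cortex and hippocampus, as given below, so its pooled value describes neither region.

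Gfra1, the co-receptor that binds GDNF, had its highest mean in precursors, at 75.3 ± 19.8 CPM, then 58.8 ± 55.8 CPM in choroid plexus, from 2, 1 and 0 UMIs in 3 libraries, and 44.2 ± 11.1 CPM in oligodendrocytes. GLUT cells held 27.4 ± 44.0 CPM, PVALB 23.3 ± 13.9 CPM, astrocytes 17.2 ± 19.0 CPM, microglia 6.86 ± 13.7 CPM, SST 4.37 ± 4.33 CPM and NGFC cells 2.25 ± 3.67 CPM. Neighbours in this order overlapped, while every PVALB value lay above every SST value. Gfra2, the co-receptor that binds neurturin, averaged 49.2 ± 43.4 CPM in GLUT, 38.6 ± 5.24 CPM in SST, 22.5 CPM in CP, 19.4 ± 9.42 CPM in PVALB and 0.569 ± 0.888 CPM in NGFC cells. Ret, the kinase that both co-receptors share, was low, at 9.54 ± 4.04 CPM in PVALB, 4.18 ± 1.37 CPM in SST and 1.85 ± 2.84 CPM in NGFC cells, with neighbours overlapping. Ret had no UMI in astrocytes or microglia of the WT libraries, oligodendrocytes held 0.0995 CPM, and the vascular cluster 34 held 24.4 CPM of Ret (6.64 to 62.4), from 4 UMIs. The share of cells with a Ret UMI was 8% of vascular and 7.99% of PVALB cells, and 2.38% and 0.901% after thinning, with 8 and 22 cells left out.

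**Figure D1:**
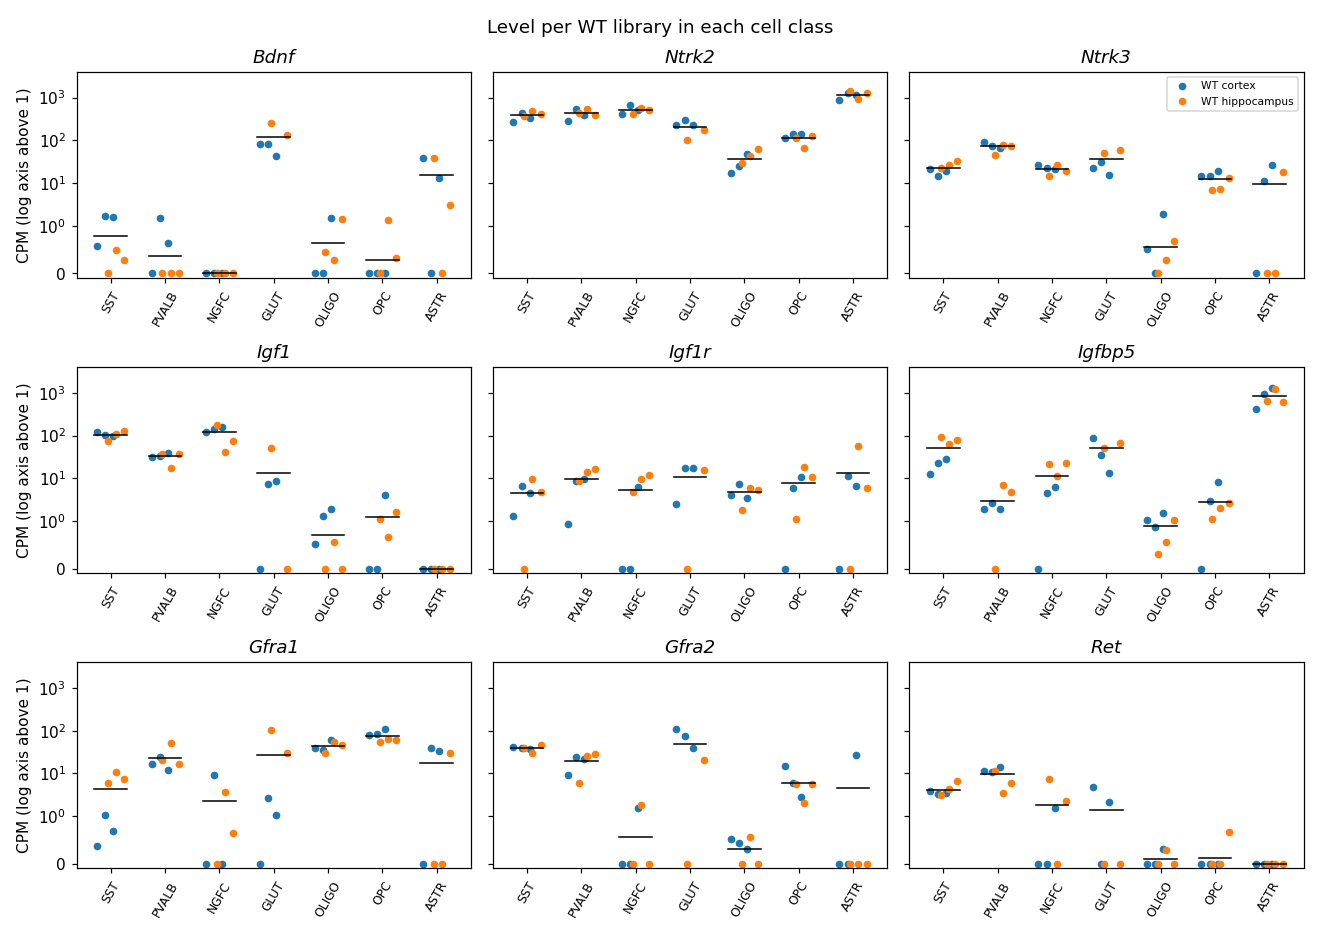
Level of each of the 9 genes (CPM, axis logarithmic above 1) in SST, PVALB, NGFC, GLUT, OLIGO, OPC and ASTR cells, with 1 point per WT library coloured by region and a bar at the mean. Bdnf points of GLUT cells lie above those of the interneuron classes, Ntrk3 points of PVALB cells lie above those of SST and NGFC cells, and Igf1 points of PVALB cells lie below those of SST cells.

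The GDNF-family receptor genes differed between the clusters of a class as well as between classes. Among interneuron clusters, the co-receptor Gfra1 was highest in PVALB cluster 24, led by Pthlh, at 89.1 CPM (73.9 to 106), against 8.35 CPM in PVALB cluster 1, 4.74 CPM in SST cluster 3 and 11.1 CPM in SST cluster 9. In cluster 24 the WT cortex libraries gave 88.3, 98.5 and 108 CPM of Gfra1 and the WT hippocampus libraries 41.7, 79.0 and 71.1 CPM, while replicate 2 of the null libraries of cortex and hippocampus gave 82.4 and 101 CPM. High Gfra1 in cluster 24 was thus present in both regions and both genotypes. The kinase Ret showed the reverse within the PVALB class. Among the 12 interneuron clusters it was highest in PVALB cluster 1, at 14.0 CPM (11.8 to 16.5), and in the Th-led cluster 11, at 10.9 CPM (7.69 to 14.9), while cluster 24 had no Ret UMI in WT cells, which allows up to 2.21 CPM among 1358253 UMIs.

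The co-receptor Gfra2 was highest in the SST clusters 8 and 26, at 108.8 CPM (101 to 117) and 103 CPM (90.1 to 117), against 25.2 CPM in PVALB cluster 1 and 1.47 CPM in PVALB cluster 24. Because Gfra2 is among the leading genes of cluster 26, its level there is a description of that cluster. Counted per cell, cluster 24 had 72 of 220 WT cells with a Gfra1 UMI (median 4834 UMIs), 2 with Gfra2 and 0 with Ret. Cluster 1 had 71 of 1313 WT cells with Gfra1 (median 7022 UMIs), 176 with Gfra2 and 126 with Ret, and Ret was found together with Gfra1 in 13 cells and with Gfra2 in 30. In cluster 8, 443 of 1060 WT cells held Gfra2, 14 held Ret and 8 held both. At these depths most Gfra1 cells of cluster 24 and most Gfra2 cells of cluster 8 had no detectable Ret. Among oligodendrocytes, 0.0345% of cells held Ret and 0.0863% Gfra2, against 2.36% and 17.9% of SST cells, and after thinning the shares were 0.0387% and 0.0581% against 0.541% and 4.26%.

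**Figure D2:**
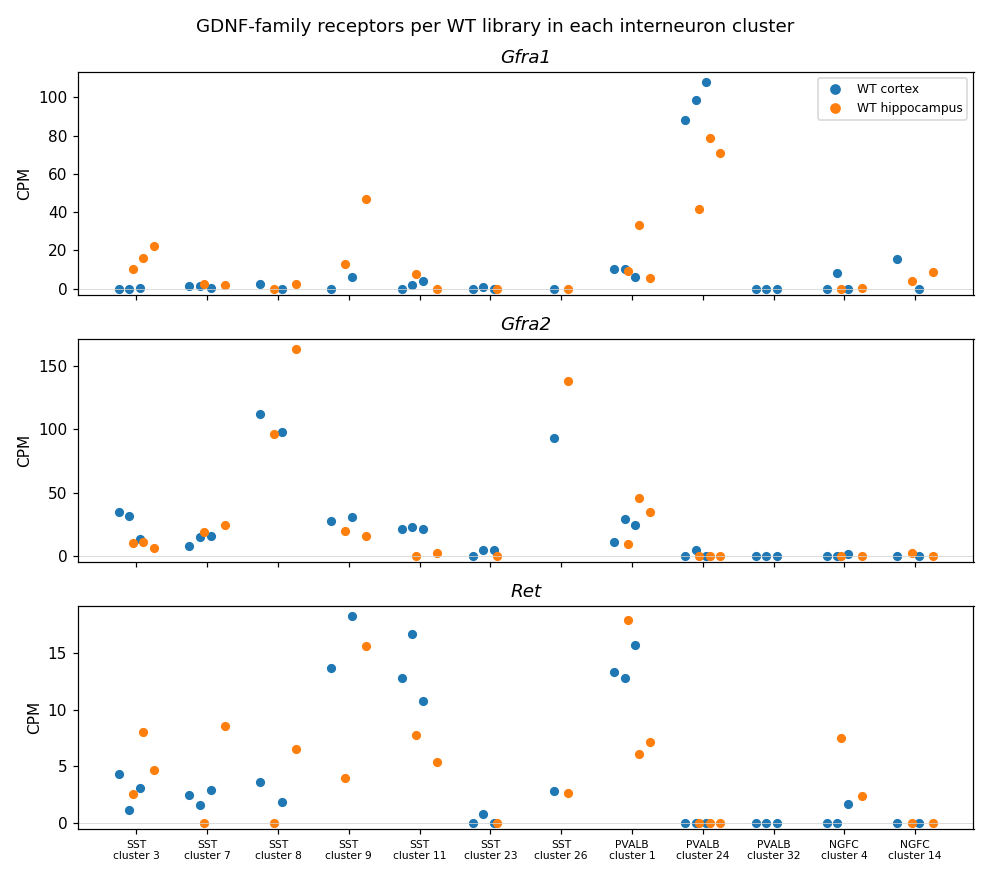
Level (CPM) of Gfra1, Gfra2 and Ret in each of the 12 interneuron clusters, with 1 point per WT library coloured by region. Gfra1 points are highest in PVALB cluster 24 and Gfra2 points in SST clusters 8 and 26, while every WT library of cluster 24 lies at 0 for Ret.

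Members were next compared between interneuron classes within the 6 WT libraries, with library as a block in edgeR's quasi-likelihood test, to ask which factors and receptors set the classes apart. SST cells had more Igfbp5, Igf1 and Gfra2 than PVALB cells, and PVALB cells had more Gfra1, Ntrk3 and Ret. Of 8 members tested, these 6 passed, with an adjusted p under 0.01 and at least 0.1 of change on the natural log scale, against 24.0% of all genes tested, so that most members and a large part of all genes differed. Igfbp5 was too low to be tested within PVALB cells and passed the filter on low counts through SST cells, so its call is a description. Igfbp5 in WT cortex replicates 1, 2 and 3 was 12.7, 23.2 and 28.5 CPM in SST and 1.88, 2.64 and 1.92 CPM in PVALB cells, and in hippocampus 92.2, 65.1 and 79.1 CPM against 0, 6.96 and 4.73 CPM. Every library was higher in SST cells, with a log2 difference of 3.73 (SE 0.21, adjusted p = 5.97e-09). Igf1, with the values above, was higher by 1.63 (SE 0.12, adjusted p = 6.31e-08) on the log2 scale.

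Ntrk3 was lower in SST than in PVALB cells in each of the 6 libraries, with a log2 difference of −1.77 (SE 0.13, adjusted p = 8.36e-08). Gfra1 in PVALB cells was 16.9, 23.7 and 11.8 CPM in WT cortex and 20.4, 50.4 and 16.6 CPM in WT hippocampus, and in SST cells 0.379, 1.08 and 0.683 CPM and 5.90, 10.9 and 7.34 CPM. It was lower in SST cells in each library, by a log2 difference of −2.99 (SE 0.37, adjusted p = 1.66e-05). Within the PVALB class, Gfra1 was highest in cluster 24, where Ret had no UMI in WT cells. Gfra1 was far lower in cluster 1, where Ret was highest. Ret was also high in the Th-led cluster 11, which is pooled with SST cells. Gfra2 was 41.9, 39.4 and 37.0 CPM in SST and 9.40, 24.5 and 22.2 CPM in PVALB cells of WT cortex, and 38.6, 29.6 and 45.1 CPM against 5.84, 26.1 and 28.4 CPM in hippocampus, with a log2 difference of 0.89 (SE 0.17, adjusted p = 0.000832). Ret was 3.98, 3.23 and 3.42 CPM in SST and 11.3, 10.6 and 14.4 CPM in PVALB cells of WT cortex. In hippocampus it was 3.22, 4.44 and 6.79 CPM in SST against 11.7, 3.48 and 5.92 CPM in PVALB cells, from 4, 2 and 5 UMIs. Ret was thus higher in PVALB than in SST cells in all 3 cortical libraries and in 1 of 3 hippocampal libraries. The log2 difference was −1.49 (SE 0.27, adjusted p = 0.000454) and −1.09 (adjusted p = 0.0263) without WT cortex replicate 3. Igf1r (−0.94, SE 0.28, adjusted p = 0.0179) and Ntrk2 (−0.15, SE 0.06, adjusted p = 0.0523) did not pass, and Bdnf was too low to be tested. Without the 3 clusters named TH, Ret too was too low to be tested, and Ntrk2 passed (−0.26, adjusted p = 0.00851, with 0.00851 to 0.173 over the settings).

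Between SST and NGFC cells, 3 of 5 tested members passed, against 20.5% of all genes tested. Gfra2 and Igfbp5 were too low to be tested between regions within NGFC cells. They passed the filter on low counts through SST cells, where they are high, so their calls are descriptions. Igfbp5 was higher in SST cells, with NGFC cells at 0, 4.56 and 6.16 CPM in WT cortex and 21.9, 11.3 and 23.1 CPM in hippocampus, and a log2 difference of 2.03 (SE 0.17, adjusted p = 2.71e-07). Gfra2 was at 3 UMIs in all WT NGFC cells together against 1316 in SST cells, a ratio of pooled levels of 82.6 (95% interval of counting error, 28.2 to 400.8, adjusted p = 3.34e-08). Ntrk2 was lower in SST than in NGFC cells. SST cells held 263, 448 and 332 CPM in WT cortex and 373, 483 and 417 CPM in hippocampus, and NGFC cells 408, 689 and 500.2 CPM and 419, 577 and 505 CPM. NGFC cells were higher within each library although the ranges overlapped, and the log2 difference was −0.43 (SE 0.07, adjusted p = 0.000397). Ntrk3 (0.18, SE 0.19, adjusted p = 0.518) and Igf1 (−0.08, SE 0.24, adjusted p = 0.851) did not pass. Both changed sign under other settings, among them without the Th-led cluster 11, where Ntrk3 was −0.16 and Igf1 0.02, and without the 3 clusters named TH, where Ntrk3 was −0.33 and Igf1 0.00.

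Between PVALB and NGFC cells, 2 of 3 tested members passed, against 20.7% of all genes tested. Ntrk3 was higher in PVALB cells (log2 difference 1.74, SE 0.14, adjusted p = 5.08e-08), with NGFC cells at 26.1, 22.8 and 21.5 CPM in WT cortex and 14.6, 26.3 and 19.3 CPM in hippocampus, below every PVALB value. Igf1 was lower in PVALB than in NGFC cells (−1.83, SE 0.15, adjusted p = 8.43e-08) in each of the 6 libraries. Ntrk2 gave −0.28 (SE 0.08, adjusted p = 0.0169). Without the filter on low counts 6 of 9 members passed, against 11.3% of all genes, without WT hippocampus replicate 1 4 of 4 passed, against 20.5%, and DESeq2 called 3 of 3, against 17.0%.

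Other genes of the same pathways were read from 5 lists with 50 genes in all, also chosen with earlier results of these data known. Between SST and PVALB cells 10 of 28 tested list genes were higher and 4 lower in SST cells, between SST and NGFC cells 6 were higher and 7 lower of 28, and between PVALB and NGFC cells 3 were higher and 5 lower of 21, where 24.0%, 20.5% and 20.7% of all genes tested passed in either direction. Several of the shares per list given next lie near or below these. Of the tested genes of the neurotrophin list, which holds ligands and receptors, 3 of 4 passed between SST and PVALB, 3 of 5 between SST and NGFC and 2 of 3 between PVALB and NGFC cells, with median log2 differences of 0.81 in the first and −1.11 in the second against 0.01 and −0.00 over all genes. Sorcs3, a sortilin-family receptor, averaged 29.1 ± 6.53 CPM in NGFC, 14.0 ± 4.82 CPM in SST and 4.23 CPM in PVALB cells, and passed in all 3 comparisons. Its relative Sorcs1 was at 21.7 ± 8.31 CPM in NGFC against 3.24 CPM in SST cells (adjusted p = 2.34e-05), and Sorcs2 at 11.9 ± 5.03 CPM in SST against 2.67 CPM in PVALB cells (adjusted p = 6.40e-06).

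In the IGF list 4 of 7, 3 of 7 and 1 of 4 tested genes passed in the same comparisons, with medians of −0.22, −0.32 and 0.10. NGFC cells held 168 ± 116 CPM of the binding protein gene Igfbp2 against 2.52 ± 4.37 CPM in SST cells (adjusted p = 1.06e-07), and 30.4 ± 10.0 CPM of the receptor substrate gene Irs1 against 10.1 CPM in SST cells (adjusted p = 1.78e-05). Igfbp3 was highest in SST cells, at 19.3 ± 7.17 CPM, against 4.32 CPM in PVALB (adjusted p = 2.02e-06) and 4.27 CPM in NGFC cells (adjusted p = 1.22e-05). Irs2 was at 12.7 CPM in SST and 21.3 CPM in PVALB cells (adjusted p = 0.000138).

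In the GDNF list 3 of 4 tested genes passed in each comparison, with medians of 0.36, 0.51 and 0.05. Nrtn, which encodes the Gfra2 ligand neurturin, averaged 69.0 ± 41.9 CPM in NGFC, 21.7 ± 11.3 CPM in SST and 19.5 ± 19.0 CPM in PVALB cells (adjusted p = 4.51e-05 against SST and 8.23e-07 against PVALB). Of the 3 interneuron classes, NGFC cells thus held the most of this ligand gene and almost no UMI of its co-receptor Gfra2. Ncam1 and Sdc3, adhesion molecules that can also bind GDNF, were highest in SST cells, at 420.3 ± 70.4 and 78.3 CPM, and lowest in NGFC cells, at 204 ± 85.5 and 21.5 CPM, and both passed in all 3 comparisons.

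Among 12 receptor adaptor genes, 1 of 10 tested passed between SST and PVALB cells (Dok5, 17.7 CPM in SST and 36.4 CPM in PVALB cells, adjusted p = 5.69e-06), 3 of 9 between SST and NGFC cells and 0 of 8 between PVALB and NGFC cells, where by edgeR 3 were under an unadjusted p of 0.05, against 40.1% of all genes, and the medians were −0.03, 0.05 and 0.29. Of the 4 genes known to respond to BDNF, 3 of 3 tested passed between SST and PVALB, 1 of 3 between SST and NGFC and 2 of 2 between PVALB and NGFC cells, with medians of 0.79, 0.74 and −0.78. The secreted granin gene Vgf ran from 334.5 ± 164 CPM in SST through 195 ± 80.7 CPM in PVALB to 96.4 ± 39.6 CPM in NGFC cells and passed in all 3 comparisons. Npy, a neuropeptide gene that also marks SST and NGFC types, was at 6390.0 ± 5297 CPM in SST, 3263 ± 1714 CPM in NGFC and 540.4 ± 244 CPM in PVALB cells.

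Cortex and hippocampus were compared within each class of WT cells. In SST cells, the co-receptor gene Gfra1 and the binding protein gene Igfbp5 were higher in hippocampus in every library, while in PVALB cells the regions overlapped for every member. Gfra1 in SST cells was 0.379, 1.08 and 0.683 CPM in the WT cortex libraries, from 2, 7 and 10 UMIs, and 5.90, 10.9 and 7.34 CPM in WT hippocampus, from 11, 22 and 27 UMIs. The regions did not overlap, and the pooled ratio was 11.0 (95% interval of counting error, 6.48 to 19.5). Grin1-null SST cells showed the same order, with 0 and 0.318 CPM of Gfra1 in cortex and 7.39 and 9.89 CPM in hippocampus. Igfbp5 in SST cells was 12.7, 23.2 and 28.5 CPM in WT cortex against 92.2, 65.1 and 79.1 CPM in WT hippocampus, and 11.0 and 17.1 CPM against 96.9 and 80.2 CPM in Grin1-null cells. For Igfbp5, too, each hippocampal library lay above each cortical library. The TrkC gene Ntrk3 in WT SST cells, at 15.1 to 21.2 CPM in cortex and 22.5 to 32.9 CPM in hippocampus, and Bdnf, at 0.569 to 1.69 CPM and 0 to 0.493 CPM, did not overlap either. Of the tested members, 3 of 8 did not overlap between the regions in SST cells, against 13.0% of all genes tested, 0 of 6 in PVALB cells, against 9.11%, and 0 of 3 in NGFC cells, against 6.84%.

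**Figure D3:**
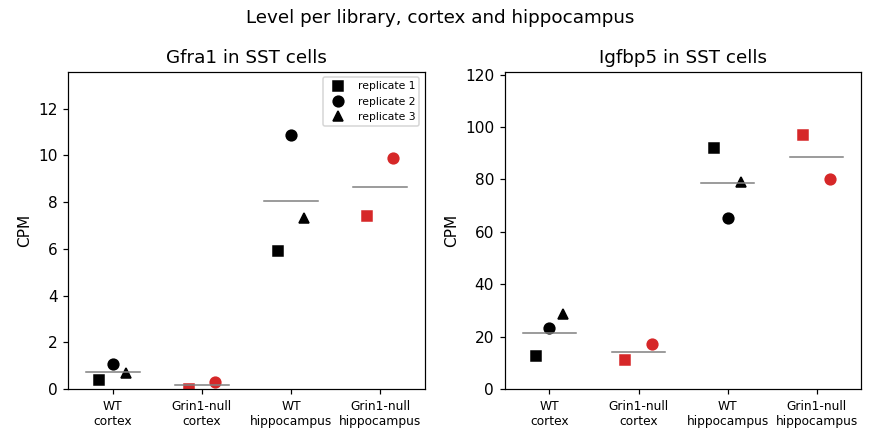
Level (CPM) of Gfra1 and Igfbp5 in SST cells, with 1 point per library, shaped by replicate, and a bar at the mean of each group of region and genotype. Hippocampal libraries lie between 5.90 and 10.9 CPM for Gfra1 and between 65.1 and 96.9 CPM for Igfbp5, above all cortical libraries.

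The log2 difference between hippocampus and cortex was 3.39 (SE 0.47, adjusted p = 0.0321) for Gfra1 and 1.81 (SE 0.31, adjusted p = 0.0703) for Igfbp5, so that by edgeR 0 of 8 tested members passed, against 0.0417% of all genes tested, while 2 members were under an unadjusted p of 0.05, against 7.42% of all genes, and DESeq2 called 2, against 1.21%. With the replicate number as a block, which pairs the regions, both passed, with a log2 difference of 3.39 (SE 0.42, adjusted p = 4.27e-05) for Gfra1 and 1.84 (SE 0.24, adjusted p = 9.56e-05) for Igfbp5, where 2.93% of all genes passed. Within replicates 1, 2 and 3 the differences on the log2(CPM + 1) scale were 2.32, 2.51 and 2.31 for Gfra1 and 2.77, 1.45 and 1.44 for Igfbp5. Of the 8 tested members 6 were higher and 2 lower in hippocampus, with a median log2 difference of 0.34 against 0.02 over all genes.

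The region difference was also present within single SST clusters. In cluster 3, led by Olfm3 and Cbln4, Gfra1 was 0, 0 and 0.281 CPM in WT cortex, the last from 1 UMI, and 10.2, 16.0 and 22.2 CPM in WT hippocampus. Of the Gfra1 UMIs of SST cells in these 3 hippocampal libraries, 8 of 11, 12 of 22 and 19 of 27 lay in cluster 3, while clusters 7 and 8 held at most 3 in a library. Over the WT cells of both regions, a Gfra1 UMI was found in 29 cells of cluster 3, 13 of cluster 9, 9 of cluster 7 and 5 of cluster 8. Igfbp5 in cluster 3 was 4.28, 5.0 and 7.88 CPM in WT cortex and 73.9, 61.4 and 79.4 CPM in WT hippocampus. In cluster 8 it was 77.7 and 69.6 CPM in replicates 2 and 3 of WT cortex and 110.4 and 203 CPM in those of WT hippocampus. Igfbp5 was thus higher in hippocampus in both clusters, from a low cortical level in cluster 3 and a high one in cluster 8.

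The share of each cluster in the SST class differed widely between libraries of a group. Cluster 9, led by Mir6236 and Lars2, whose cells had 0.437 of the median UMI count of their libraries, held 1.43%, 13.3% and 8.93% of cortical and 2.80%, 59.7% and 15.8% of hippocampal SST cells of WT, in the order of the replicates. Its pooled share was 9.07% in cortex and 37.8% in hippocampus, or 10.1% without WT hippocampus replicate 2. Cluster 3 held 13.2%, 23.1% and 20.8% in cortex and 43.0%, 21.5% and 19.8% in hippocampus, and cluster 7 held 26.9%, 16.3% and 25.1% against 20.3%, 0.965% and 30.2%. Cluster 8 held 1.43%, 28.6% and 30.7% in cortex and 2.098%, 15.2% and 19.0% in hippocampus, and cluster 26 held 36.5%, 0.253% and 0.302% against 17.1%, 0% and 0.272%, so that in WT these 2 clusters divided the libraries by replicate number, and thus by chemistry. Cluster 27, led by Pcp4 and Tacr1, held SST and cholinergic markers and was kept out of the class after the data had been seen. Counted with SST cells it would make up 3.02% and 4.57% of them in cortex and hippocampus of WT and 7.32% and 4.96% in those of Grin1-null mice. Of its 71 WT hippocampal cells 61 came from replicate 3, without which the share was 0.889%, and without replicate 2 the Grin1-null shares were 3.54% and 1.90%. Clusters 20 and 28, led by Hbb-bs and Oxt, stayed without a class.

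Markers of glia moved with region in SST cells. All 8 oligodendrocyte markers were found in every library, with a summed level of 741, 1373 and 597 CPM in WT cortex and 2886, 3503 and 1636 CPM in WT hippocampus. The 5 precursor markers summed to 2.27, 2.31 and 6.08 CPM in cortex and 11.3, 35.0 and 16.3 CPM in hippocampus, led by Gpr17, with Cspg4 at 0 in replicate 1 of both regions, Bmp4 at 0 in hippocampus replicate 1 and Pdgfra at 0 in hippocampus replicate 3. The 7 astrocyte markers summed to 24.8, 36.9 and 36.5 CPM in cortex and 34.3, 135 and 47.8 CPM in hippocampus, led by Slc1a2, with Aqp4, Gja1, Aldh1l1, Gfap and Fgfr3 at 0 in hippocampus replicate 1, the library with the highest WT level of Igfbp5. Their part in the Gfra1 and Igfbp5 differences was not tested. WT NGFC cells of hippocampus carried 2092, 6770.2 and 928 CPM of the same oligodendrocyte markers with 0, 3.75 and 0.642 CPM of Gfra1. In WT NGFC cells of cortex Gfra1 was 0, 9.13 and 0 CPM. How these markers relate to Gfra1 was not tested in NGFC cells either. The 4 choroid plexus markers reached 253 CPM in WT hippocampus replicate 3, of which Ttr made up 247 CPM, and at most 2.21 CPM in the other libraries.

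In PVALB cells, by edgeR 0 of 6 tested members passed between the regions, against 0.0344% of all genes, with 0 members under an unadjusted p of 0.05, against 4.44%, and 0 by DESeq2, against 0.332%, and the median log2 difference was 0.00 against 0.02 over all genes. With the replicate block, too, 0 members passed, against 0.47% of all genes. Gfra1 in PVALB cells was nevertheless higher in hippocampus within replicates 1, 2 and 3, by 0.26, 1.06 and 0.46 on the log2(CPM + 1) scale (adjusted p = 0.477 with the block), and so was Igf1r, too low to be tested, by 2.33, 0.63 and 0.71. Cluster 24, where Gfra1 is high, held 11.0%, 13.5% and 4.93% of PVALB cells in WT cortex and 28.8%, 43.8% and 14.3% in WT hippocampus, while within this cluster Gfra1 was lower in hippocampus in each replicate. Oligodendrocyte markers in PVALB cells summed to 181, 1096 and 717 CPM in WT cortex and 1990, 3749 and 2730 CPM in WT hippocampus. The part of either in the Gfra1 difference was not tested. In NGFC cells 0 of 3 passed, against 0.0% of all genes, again with 0 under an unadjusted p of 0.05, against 2.77%, and 0 by DESeq2, against 0.0881%. With the replicate block 0 members passed in NGFC cells, against 0.138% of all genes. Under an unadjusted p of 0.05 was then 1 member, Igf1, lower in hippocampus (log2 difference −0.78), against 7.03% of all genes. Igfbp5 in NGFC cells, too low to be tested, was 0, 4.56 and 6.16 CPM in WT cortex and 21.9, 11.3 and 23.1 CPM in hippocampus. These did not overlap, and hippocampus was higher within replicates 1, 2 and 3 by 4.52, 1.14 and 1.75 on the log2(CPM + 1) scale. Igf1r in NGFC cells, also too low to be tested, was higher in hippocampus within these replicates by 2.55, 3.38 and 0.88, although the regions overlapped. Cluster 4 held 80.0% of NGFC cells in WT cortex and 46.9% in WT hippocampus, where cluster 14 held the rest, 99.8% in replicate 2 and 7.87% without that replicate. Of the list genes, edgeR without the replicate block called 0 of 35 in SST, 0 of 21 in PVALB and 0 of 25 in NGFC cells between regions. Counts of list genes with the block are not given here. Under an unadjusted p of 0.05 were 8, 3 and 4 of these, against 7.42%, 4.44% and 2.77% of all genes.

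Both genes lie on the minus strand, Gfra1 at chr19:58235604-58455909 and Igfbp5 at chr1:72857932-72874884 (GENCODE vM21, GRCm38), with no same-strand gene within 4000 bases of their ends. RefSeq promoter windows, from 250 bases before to 50 after a gene's start, were matched for 6 of the 9 genes. The Gfra1 window follows the RefSeq start and lies within the GENCODE gene, downstream of its GENCODE start, so that the stretch before that start was not examined. The windows of the 2 genes that were higher together in hippocampal SST cells, at chr1:72874816-72875115 and chr19:58455349-58455648 of GRCm38.p6 (minus strand), are shown because these 2 genes carry the region result, with CAGCTG in capitals.
Igfbp5: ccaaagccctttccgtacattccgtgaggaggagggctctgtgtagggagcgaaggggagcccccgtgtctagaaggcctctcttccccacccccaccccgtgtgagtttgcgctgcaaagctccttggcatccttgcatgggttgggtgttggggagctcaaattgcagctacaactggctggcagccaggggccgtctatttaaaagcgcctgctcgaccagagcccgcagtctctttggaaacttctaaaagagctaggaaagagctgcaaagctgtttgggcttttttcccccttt
Gfra1: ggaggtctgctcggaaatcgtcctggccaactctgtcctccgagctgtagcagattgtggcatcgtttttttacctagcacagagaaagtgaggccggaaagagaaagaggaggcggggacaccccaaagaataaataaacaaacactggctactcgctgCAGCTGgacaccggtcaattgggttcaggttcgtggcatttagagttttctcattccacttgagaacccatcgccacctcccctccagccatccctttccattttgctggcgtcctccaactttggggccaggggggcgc
CAGCTG, searched on both strands, occurred 1 time in the Gfra1 window and 0 times in the Igfbp5 window, and in 16.3% of 32851 promoter windows of the same length. TAATTA, also on both strands, occurred in neither window and in 5.29% of all. A missing match says only that these letters are not in this window.

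Grin1-null and WT libraries were compared to ask whether loss of NMDA receptors alters these genes. As a check of the labels, Grin1 was read first. In SST cells it was 152, 254 and 232 CPM in WT cortex and 37.5 and 28.4 CPM in Grin1-null cortex, and 119, 174 and 159 CPM in WT hippocampus against 22.2 and 21.7 CPM. PVALB cells held 114, 213 and 177 CPM of Grin1 in WT cortex against 41.2 and 23.1 CPM, and NGFC cells of hippocampus 118, 112 and 133 CPM against 30.9 and 15.7 CPM. Grin1-null libraries were low throughout, with no overlap. The log2 change was −2.71 (SE 0.33, adjusted p = 0.0356) in SST cortex, −2.77 (SE 0.33, adjusted p = 0.0307) in SST hippocampus and −2.56 (SE 0.41, adjusted p = 0.0262) in PVALB cortex, so that Grin1 did not pass an adjusted p of 0.01 in these models. It passed in all 3 with DESeq2, at an adjusted p of 6.11e-12, 1.98e-12 and 6.64e-06, and with no filter on low counts, settings in which no member passed. Over all settings the adjusted p of Grin1 ranged from 6.11e-12 to 0.892, from 1.98e-12 to 0.937 and from 2.41e-07 to 0.944. In PVALB and NGFC cells of hippocampus Grin1 did not pass by edgeR either (adjusted p = 0.0667 and 0.508) and passed with DESeq2 and with no filter. In NGFC cells of cortex, at 114, 178 and 169 CPM in WT and 33.1 CPM in the single Grin1-null library, it passed in none of these 3 settings (adjusted p = 1.0 by edgeR), so that the test did not recover the control gene there. Whether the counted 3′ tags lie within the deleted stretch is not given in the sources used here.

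No member passed in any class or region. By edgeR 0 of 8 tested members were called in SST cortex and 0 of 8 in SST hippocampus, against 0.0% of all genes in both, with 1 and 0 members under an unadjusted p of 0.05, against 2.19% and 3.73%, and 0 and 0 by DESeq2, against 0.0156% in both. In PVALB cells 0 of 7 were called in cortex, against 0.0104% of all genes, and 0 of 7 in hippocampus, against 0.0%, with 1 and 0 under an unadjusted p of 0.05, against 3.66% and 3.16%, and 0 and 0 by DESeq2, against 0.156% and 0.0104%. In NGFC cells 0 of 5 were called in each region, against 0.0% of all genes, with 0 under an unadjusted p of 0.05, against 1.55% and 3.45%, and 0 by DESeq2, against 0.0% and 0.0101%, and in cortex a single null library was assumed to vary like the other groups. All 8 tested members had a log2 change below 0 in SST cells of cortex, with a median of −0.46 against −0.02 over all genes, and in hippocampus 6 of 8 did, with a median of −0.22 against −0.03. The medians were −0.20 against −0.01 in PVALB cortex and −0.16 against −0.02 in PVALB hippocampus, and −0.50 against −0.03 and −0.25 against −0.06 in NGFC cells. Of the list genes, edgeR called 0 of 37 in SST, 0 of 24 in PVALB and 0 of 30 in NGFC cells of either region, with 1, 3 and 1 under an unadjusted p of 0.05 in cortex and 1, 0 and 4 in hippocampus.

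Levels that do not overlap between so few libraries were common among all genes. In cortex, the genotypes did not overlap for 4 of 8 tested members in SST, 2 of 7 in PVALB and 2 of 5 in NGFC cells, against 16.0%, 19.8% and 40.9% of all genes tested, the last with 1 null library. In hippocampus they did not for 1 of 8, 2 of 7 and 1 of 5, against 17.6%, 14.1% and 18.8%. The values that follow are therefore descriptions.

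The co-receptor gene Gfra2 had non-overlapping levels in cortical SST cells. It was 41.9, 39.4 and 37.0 CPM in WT and 24.3 and 23.5 CPM in Grin1-null cortex. In hippocampus it was 38.6, 29.6 and 45.1 CPM in WT and 23.8 and 31.3 CPM in Grin1-null libraries, where the groups overlapped. The log2 change in cortex was −0.72 (SE 0.26, adjusted p = 1.0), and within replicates 1 and 2 the difference on the log2(CPM + 1) scale was −0.76 and −0.72. Of the clusters that hold most Gfra2, cluster 26 held 36.5%, 0.253% and 0.302% of SST cells in WT cortex and 7.34% and 0.275% in Grin1-null cortex, and cluster 8 held 1.43%, 28.6% and 30.7% against 25.7% and 11.8%. Within cluster 8, Gfra2 was 113 and 98.1 CPM in WT cortex replicates 2 and 3 and 66.2 and 130.4 CPM in the Grin1-null libraries, which overlapped. The Th-led cluster 11 held 15.3%, 7.16% and 10.6% of SST cells in WT cortex and 6.42% and 23.0% in Grin1-null cortex, and the Npy-led cluster 23 held 5.25%, 11.3% and 3.56% against 3.67% and 20.2%, so that in replicate 1 both shares were lower in the Grin1-null library and in replicate 2 both were higher. The part of these shares in the Gfra2 difference was not tested.

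The kinase gene Ret had non-overlapping levels in cortical PVALB cells. It was 11.3, 10.6 and 14.4 CPM in WT cortex, from 12, 28 and 90 UMIs, and 3.43 and 3.08 CPM in Grin1-null cortex, from 1 and 10 UMIs, and the pooled WT level was 4.18 times the null level (95% interval of counting error, 2.26 to 8.59). In hippocampus Ret was 11.7, 3.48 and 5.92 CPM in WT and 4.56 and 6.18 CPM in Grin1-null libraries, and the groups overlapped. The log2 change was −1.96 (SE 0.57, adjusted p = 0.516) in cortex, and the difference between the changes in hippocampus and in cortex was 1.80 (SE 0.82, adjusted p = 1.0). Cluster 1, which holds most Ret of the class, made up 81.6%, 84.5% and 92.2% of PVALB cells in WT cortex and 70.0% and 46.8% in Grin1-null cortex, where cluster 24 held 6.67% and 30.2% and cluster 32 held 23.3% and 23.0%. Within cluster 1 alone Ret was 13.4, 12.8 and 15.7 CPM in WT cortex and 4.63 and 5.93 CPM in Grin1-null cortex, the latter from 1 and 9 UMIs. The groups did not overlap within this cluster, and no test was run on it. Oligodendrocyte markers in PVALB cells summed to 181, 1096 and 717 CPM in WT cortex and 89.1 and 637 CPM in Grin1-null cortex. Oligodendrocytes of the WT libraries held 0.0995 CPM of Ret. The part of the cluster shares or of these markers in the Ret difference was not tested.

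The TrkB gene Ntrk2 was lower in Grin1-null than in WT hippocampus in all 3 classes, and in NGFC cells of cortex, without passing the test. In SST cells it was 373, 483 and 417 CPM in WT and 300.5 and 321 CPM in Grin1-null hippocampus. PVALB cells held 444, 548 and 399.9 CPM against 352 and 372 CPM, and NGFC cells 419, 577 and 505 CPM against 358 and 402 CPM of Ntrk2. In cortical NGFC cells it was 408, 689 and 500.2 CPM in WT and 341 CPM in the single Grin1-null library, with a difference of −1.01 within replicate 2 on the log2(CPM + 1) scale. The genotypes did not overlap in these cells or in any class of hippocampus, while in cortical SST cells, at 263, 448 and 332 CPM in WT and 292 and 340.0 CPM in Grin1-null libraries, they did. In hippocampal SST cells the log2 change was −0.43 (SE 0.27, adjusted p = 0.972), with −0.31 and −0.59 within replicates 1 and 2 on the log2(CPM + 1) scale. The 3 classes share their libraries and are not independent. The clusters also differed in share, since cluster 14 held 2.17%, 99.8% and 10.9% of NGFC cells in WT and 1.52% and 4.59% in Grin1-null hippocampus, cluster 9 held 2.80%, 59.7% and 15.8% against 17.5% and 7.24% of SST cells, and cluster 3 held 43.0%, 21.5% and 19.8% against 30.1% and 42.2%. Within SST cluster 3, Ntrk2 was 340.1, 549.9 and 411 CPM in WT and 334 and 335 CPM in Grin1-null hippocampus, and within NGFC cluster 4 it was 419 and 499 CPM in WT replicates 1 and 3 and 363 and 402 CPM in the Grin1-null libraries. No test was run within clusters, and the part of the shares was not tested. The median depth per cell was 8839 and 9508 UMIs in Grin1-null and 4411, 1479 and 5741 UMIs in WT hippocampus, so that genotype and depth cannot be told apart here.

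**Figure D4:**
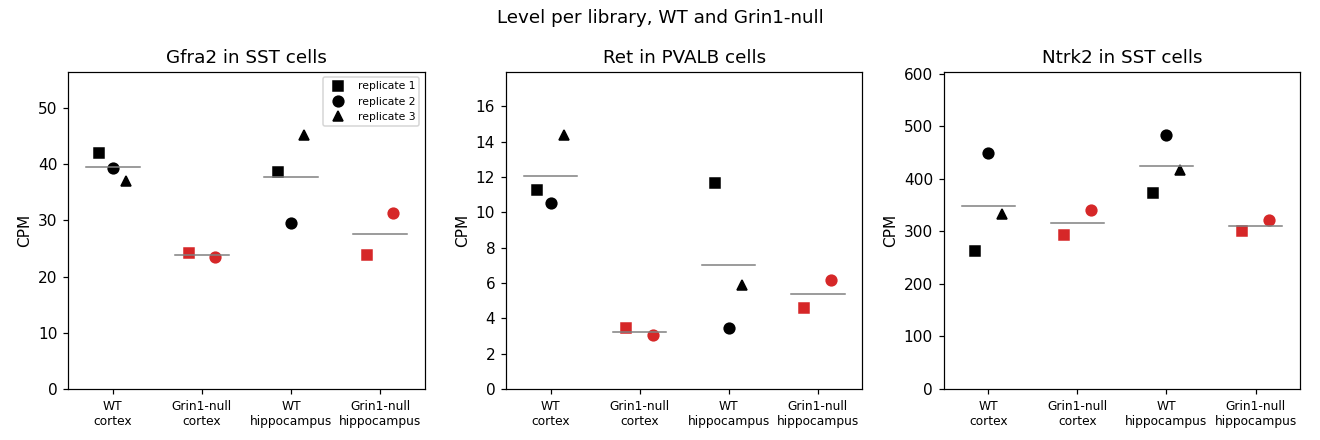
Level (CPM) of Gfra2 in SST, Ret in PVALB and Ntrk2 in SST cells, with 1 point per library, shaped by replicate (black, WT; red, Grin1-null), and a bar at the mean of each group. Gfra2 and Ret do not overlap between genotypes in cortex and overlap in hippocampus, while Ntrk2 overlaps in cortex and not in hippocampus.

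Bdnf, too low to be tested, was higher in SST cells of Grin1-null than of WT libraries in both regions, at few UMIs. In cortex it was 4.41 and 2.12 CPM in Grin1-null libraries, from 4 and 20 UMIs, and 0.569, 1.69 and 1.64 CPM in WT, from 3, 11 and 24 UMIs. In hippocampus it was 0.821 and 1.28 CPM in Grin1-null libraries, from 1 and 16 UMIs, and 0, 0.493 and 0.272 CPM in WT, from 0, 1 and 1 UMIs. The genotypes did not overlap in either region. In hippocampus the share of cells with a Bdnf UMI was 0.938% of Grin1-null SST cells (median 14649 UMIs) and 0.135% of WT SST cells (median 3217), against 1.83% (median 8346) and 0.316% (median 3302) of oligodendrocytes. The thinned shares there were 0% and 0% of SST cells and 0.222% and 0.0805% of oligodendrocytes, with 22, 181, 8 and 388 cells left out. The SST share in hippocampus was thus below that of oligodendrocytes in both genotypes, and the part of free RNA in these counts was not tested. In cortex the shares were 1.79% of Grin1-null (median 13029 UMIs) and 0.864% of WT SST cells (median 7074), against 0.0986% and 0.297% of oligodendrocytes, and 0.263%, 0.211%, 0% and 0% after thinning. The 7 glutamatergic markers in SST cells summed to 44.1 and 49.7 CPM in Grin1-null cortex and 53.8, 99.7 and 77.3 CPM in WT cortex, and to 43.5 and 62.1 CPM against 62.7, 128 and 54.1 CPM in hippocampus, led by Camk2a. Grin1-null cortex replicate 1, the library with the highest Bdnf level, held 109 SST cells and 4 UMIs of Bdnf. Of these markers, Slc17a6, Neurod6, Neurod2 and Tbr1 were among those at 0 there, while others were present. The part of glutamatergic RNA in the Bdnf counts was not tested.

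Among the other members, Igf1 in SST cells was 86.1 and 77.3 CPM in Grin1-null cortex, below the WT cortex values, and 64.9 and 101 CPM in Grin1-null hippocampus, overlapping WT. Igf1 in PVALB cells went the other way in cortex, at 41.2 and 54.6 CPM in Grin1-null against 32.0, 33.9 and 38.3 CPM in WT libraries, with no overlap. Cluster 32, whose WT cells held 172 CPM of Igf1, made up 7.35%, 2.01% and 2.86% of PVALB cells in WT cortex and 23.3% and 23.0% in Grin1-null cortex, and its part was not tested. Other levels did not overlap either, several of them at few UMIs. Igf1r in PVALB cells of hippocampus was 2.28 and 6.89 CPM in Grin1-null libraries, from 1 and 29 UMIs, and 8.76, 13.9 and 16.6 CPM in WT, from 3, 8 and 14. In SST cells of cortex, Ret was 0 and 3.07 CPM in Grin1-null libraries against 3.98, 3.23 and 3.42 CPM in WT, and Gfra1 was 0 and 0.318 CPM, from 0 and 3 UMIs, against 0.379, 1.08 and 0.683 CPM. In the single Grin1-null library of cortical NGFC cells, Ntrk3 was 16.5 CPM, below 26.1, 22.8 and 21.5 CPM in WT, and Ret was 1.84 CPM, from 2 UMIs, above 0, 0 and 1.54 CPM. Ntrk3 in PVALB cells was 92.6 and 26.5 CPM in cortex and 59.3 and 44.2 CPM in hippocampus of Grin1-null libraries, overlapping WT in both regions. Igfbp5 in SST cells of the null libraries overlapped WT in both regions, and the difference between the genotype changes of the regions was 0.72 (SE 0.48, adjusted p = 1.0).

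Genes of like pattern were sought over the 32 named clusters, as the highest Pearson correlation of log2(CPM + 1) among 7170 genes, for members averaging at least 20 CPM. The clusters share libraries, and the correlations are a description. Ntrk2 was most like Kcnk1 (r = 0.932), Acsl6 (0.921) and Mt3 (0.898), of which Mt3 is a metallothionein gene of brain. Igf1 was most like Frmpd4 (0.916), Zfp385b (0.905) and Efna5 (0.902), an ephrin gene. Igfbp5 was most like Clu (0.910), Atp1b2 (0.890) and Epdr1 (0.832), of which Clu and Atp1b2 are known from astrocytes, and Gfra1 was most like Itgb8 (0.842), Olig2 (0.833) and Olig1 (0.807), the last pair being transcription factors of the oligodendrocyte lineage. Bdnf, Ntrk3, Igf1r, Gfra2 and Ret averaged under 20 CPM over the clusters.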

How the data were processed

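The deposited files hold UMI counts per gene and cell, which the authors made with Cell Ranger (2.1.1 per the methods and labels, 3.0.2 per the file headers) against mm10 with gene ends extended downstream; 4 matrices pool 10 libraries, told apart by barcode suffix and matched to replicates by the cell numbers of the methods. Depths per library are given above, and intervals and limits of a count of 0 (3 counts) cover counting error only. With the authors' gene models extended by 4000 bases, reads could be shared with 1 same-strand gene for Bdnf (Gm20638) and Ntrk2 (C630044B11Rik) and with 2 for Ntrk3 (Gm44607 and Gm39038), and these levels are uncertain to that extent. The members and lists were chosen with earlier results of these data known.

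Of 26987 cells, 26201 had between 200 and 6000 genes and less than 30% of UMIs from 37 mitochondrial genes and were kept. Seurat 5.3.0 in R 4.3.3 integrated the matrices by 25 dimensions of canonical correlation over 2000 variable features, without the members and list genes, and clustered at resolution 1.0. A cluster took the class whose markers were highest over the other clusters, among classes with at least 3 markers at 20 CPM and above the mean of clusters. Interneuron classes also needed 2 general interneuron markers, and clusters under 0.333 of the depth of their libraries a marker of the class among the 10 leading genes. Cluster names were rebuilt here, so that differences from the study may come from them. Doublets were not removed; Scrublet, at an expected rate of 0.06, marked 249 cells (0.95%), whose removal was an alternative.

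Each class's counts were added up within a library where it had 10 cells or more, and edgeR 4.0.16 was run on the sums (TMM, filterByExpr, quasi-likelihood test, Benjamini-Hochberg adjustment over all genes tested), in 1 model per class for genotype, in WT libraries for region, and with library as a block between classes. A gene passed with an adjusted p under 0.01 and at least 0.1 of change on the natural log scale (0.144 on the log2 scale). The p-values measure the spread between libraries. Named were the 9 members, list genes called in a comparison (at most the 4 with the largest change per list) and the 3 genes most like a member; Grin1 checked the labels. Some list genes are not reported here. The scripts were tested on simulated data. Same-numbered WT libraries of the 2 regions deviated together in 9 of 9 pairs (r from 0.283 to 0.788), so replicate numbers pair the regions; between genotypes r was 0.215 to 0.331. Alternatives were DESeq2 1.42.0, scaling without TMM, no filter on low counts, an adjusted p under 0.05, the replicate block, fits of only the groups compared, sums of at least 20 cells, a stricter cell filter (1000 genes or more, mitochondrial share up to 10%), Scrublet, resolution 0.6, clustering with the members, each library left out and 4 alternatives chosen after seeing the data: SST cells without cluster 9, with cluster 27, without cluster 11 and without the 3 clusters named TH. Other steps ran in Python 3.11.15 (scanpy 1.11.5, pandas 2.3.3, scipy 1.17.1, numpy 2.4.6).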

Additional observations from a re-analysis of the deposited data

Results flagged for a closer look

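In 4 of 37 groups of WT libraries examined, 1 library stood far from the others. A chance rate of about 1 in 20 would hold for independent groups of like libraries. The groups share libraries and pool both regions and chemistries, so that rate does not apply to them. The 4 were Igf1 in PVALB cells of WT hippocampus replicate 2, at 17.4 CPM, Gfra1 in the same cells and library, at 50.4 CPM, Gfra2 in OPC cells of WT cortex replicate 1, at 14.8 CPM, and Ret in SST cells of WT hippocampus replicate 3, at 6.79 CPM.

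Within each replicate, Igfbp5 in SST cells was lower in the Grin1-null than in the WT library in cortex and higher in hippocampus, and neither difference passed the test. On the log2(CPM + 1) scale, the difference between Grin1-null and WT within the replicate nearest to 0 was −0.19 in cortex and 0.07 in hippocampus, and the test of the difference between the regions gave 0.72 (SE 0.48, adjusted p = 1.0 by edgeR).

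Clusters without a class also held members. Pooled over WT cells, Ntrk3 was 92.5 CPM in cluster 20, led by Hbb-bs, and Igf1 was 208 CPM in cluster 28, led by Oxt. Ret was 27.6 CPM in cluster 27, led by Pcp4 and Tacr1, from 31 UMIs of 1123749, and 1.43 CPM in Grin1-null cells of this cluster, from 2 UMIs. In replicates 1, 2 and 3 the cluster held 12, 56 and 40 cells of WT cortex and 9, 1 and 61 of WT hippocampus. In replicates 1 and 2 it held 4 and 62 cells of Grin1-null cortex and 2 and 48 of Grin1-null hippocampus. The Ret values thus pool libraries and regions in unlike parts, and their difference was not tested.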

How the results depend on the processing

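Of the 12 counts of members called, the 6 for genotype were 0 under all 133 settings tried. The count for region in SST cells went from 0 to 1 at an adjusted p under 0.05, to 2 with DESeq2, to 2 with no filter on low counts and to 2 with the replicate block, which changed no other member call. The count between PVALB and NGFC cells went from 2 to 6 with no filter on low counts, where members too low for the filter are tested as well, and was 2 to 4 when each library was left out. Over the alternatives, the log2 differences of named genes kept their direction and their side of the threshold in 419 cases, passed in 24 more, no longer passed in 1 (Ret between SST and PVALB cells without WT cortex replicate 3) and changed sign in 7. The 7 were differences between SST and NGFC cells that did not pass in any setting: Igf1 was 0.0248 and Ntrk3 −0.162 without the cluster led by Th, 0.0049 and −0.335 without the 3 clusters named TH, Igf1 ranged from −0.32 to 0.17 and Ntrk3 from −0.0736 to 0.263 when each library was left out, with Igf1 at 0.05 without WT cortex replicate 3 and 0.17 without WT hippocampus replicate 1, and Ntrk3 lowest without WT hippocampus replicate 3. The cause was not tested. For region in SST cells, Gfra1 kept a log2 difference of 3.26 to 4.71 and Igfbp5 of 1.74 to 1.90 over the settings, and 3.10 to 3.67 and 1.56 to 2.07 with a library left out, with adjusted p from 3.91e-06 to 0.238 and from 5.55e-05 to 0.255. In the main fits, with the filter on low counts, Bdnf was too low to be tested in any comparison, and Gfra1 and Ret in those with NGFC cells. Under some alternatives that keep this filter, Bdnf was tested. An example is genotype in SST cells without the cluster led by Th, where all 9 members were tested.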
